A study of Mus musculus with 4 samples.

Results

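Apoe, Apoc2, C1qa, C1qb and C1qc were followed through single-cell RNA libraries of mouse bone marrow. They are 5 of the 33696 genes in the count tables, taken by symbol as a set of genes known for their use by macrophages and chosen because of their level in earlier work on these same libraries. Levels per library and cluster are therefore descriptions, and no difference between libraries was tested. A unique molecular identifier (UMI) marks 1 captured RNA molecule, and a level in CPM is a gene's UMIs scaled to the same total in every library or cluster.

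The 4 groups were B12+Butyrate, B12, Butyrate and Control, and each is 1 library made from the pooled marrow of 3 mice. Irradiated hosts had received an equal mixture of Tet2+/- marrow marked CD45.2+ and Tet2+/+ marrow marked CD45.1+, and were treated for 7 months after 1 month of engraftment. Injections, 2 a week, held 0.29 µg vitamin B12 (B12+Butyrate and B12) or phosphate-buffered saline (Butyrate and Control). Drinking water held 100 mM sodium butyrate (B12+Butyrate and Butyrate) or 100 mM sodium chloride (B12 and Control). Only live CD45.2+ cells were sequenced, so all groups, Control included, carry the loss of 1 Tet2 copy. The loaded cells were an equal mixture of Kit+ and Kit- sorts, so shares of cells are not those of whole marrow. The hosts' own CD45 allele is not given in the labels, so long-lived host macrophages that carry CD45.2 cannot be told apart from donor cells.

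Apoe encodes apolipoprotein E, a lipid carrier that macrophages secrete as they export cholesterol, and Apoc2 encodes a small apolipoprotein that activates lipoprotein lipase. C1qa, C1qb and C1qc encode the A, B and C chains of C1q, the recognition part of the first component of complement, which binds antibody and dying cells and which tissue macrophages make at high level. In marrow, macrophages sit at the centre of islands of erythroblasts, take up ageing neutrophils and express Cd5l, Spic and Vcam1.

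The genes lie in gene clusters. In GRCm38, C1qb (chr4:136880129-136886187), C1qc (chr4:136889804-136893065) and C1qa (chr4:136895917-136898803) follow each other on the minus strand of chromosome 4. Apoc2 (chr7:19671579-19677941) and Apoe (chr7:19696109-19699188) lie on the minus strand of chromosome 7 with Apoc4 and Apoc1 between them. The gene model Gm44805 overlaps Apoc2 on the same strand and has no row in the count tables, so the Apoc2 count is uncertain where reads are shared. The promoters of C1qb, C1qc and Apoe are shown because the 3 chains were detected together while Apoe was also abundant in cells without C1q. Capitals mark GAGGAA, the core of the site bound by the myeloid regulator Spi1, its reverse complement TTCCTC, and TGCTGA, part of the site bound by Maf factors. The sequences are RefSeq's (GRCm38.p6), in the direction of transcription, and end at the base before the annotated exon.
C1qb chr4:136886201-136886450: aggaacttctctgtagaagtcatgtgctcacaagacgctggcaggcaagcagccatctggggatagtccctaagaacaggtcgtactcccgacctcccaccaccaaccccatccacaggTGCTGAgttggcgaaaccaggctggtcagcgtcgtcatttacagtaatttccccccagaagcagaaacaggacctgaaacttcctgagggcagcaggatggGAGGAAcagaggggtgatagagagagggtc
C1qc chr4:136893066-136893164: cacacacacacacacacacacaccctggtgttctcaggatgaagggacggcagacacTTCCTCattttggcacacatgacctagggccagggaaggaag
Apoe chr7:19699189-19699438: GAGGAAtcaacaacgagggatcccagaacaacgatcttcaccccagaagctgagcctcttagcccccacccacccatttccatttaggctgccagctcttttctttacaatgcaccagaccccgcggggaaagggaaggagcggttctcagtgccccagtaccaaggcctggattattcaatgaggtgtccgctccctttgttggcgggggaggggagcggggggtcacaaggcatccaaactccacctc

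Both strands were searched over the 250 bases before each start. GAGGAA lay 30 bases before the C1qb start, 193 bases before the C1qc start on the other strand, 250 bases before the first of 3 Apoe starts and 132 bases before the third. For C1qc and the third Apoe start, an annotated exon of the same gene begins within the 250 bases. Only 99 and 27 bases lie before that exon. The C1qc match lies in those bases, and the match of the third Apoe start does not. TGCTGA lay 131 bases before the C1qb start. GAGGAA was in 23.3% of 32851 promoters of the same length and TGCTGA in 16.1%, so each match is a description only. The promoter table held 4 of the 5 genes (not C1qa).

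The libraries held 8070 (B12+Butyrate), 8980 (B12), 7932 (Butyrate) and 9688 (Control) barcodes. Limits of 500 genes, 1000 UMIs and 10% mitochondrial UMIs left 31209 of 34670 as cells, with 92643344 to 120843088 UMIs a library and a median of 11583.5 to 12544.5 UMIs a cell. Of the 31209 cells, 93 barcode sequences occurred in 2 or more libraries. Cells were grouped into 32 clusters without use of the 5 genes, and 22 clusters took a name ending in -like from marker genes. Intervals are exact 95% intervals, and they and the limits for a count of 0 cover counting error only.

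Apoe and Apoc2 came mainly from monocyte-like cells and C1q from a small set of other cells. Apoe had 58511 UMIs, a level of 133 CPM, in 6195 cells, and 57.9% of them were in monocyte-like cells, which made up 13.7% of all cells. Apoc2 had 12960 UMIs (29.5 CPM) in 4584 cells, of which monocyte-like cells held 71.0%. The 3 C1q chains had 4491 UMIs in 259 cells, and 87.3% of these were in cluster 14, an unnamed cluster with 2.59% of the cells. Monocyte-like cells held 3.58% of the C1q UMIs.

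The naming of the set after macrophages fits its members unequally. No cluster was named macrophage-like: cluster 14 scored 2.71 for monocyte-derived dendritic cell markers and 2.51 for macrophage markers, too close to name, and its leading genes were C1qa, Cd209a, C1qb, C1qc, Negr1, Mrc1 and Clec10a. Of its 809 cells, 138 (17.1%, 14.5 to 19.8%) had any C1q UMI. Apoe and Apoc2 had most of their UMIs outside it, with 8.48% of the Apoe UMIs inside.

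Nonclassical monocyte-like cells, a patrolling monocyte type led by Ace, Cd300e and Adgre4, had the highest level of both apolipoproteins among the 32 clusters. Their Apoe level was 3646 CPM (3521 to 3774) and 83.6% of the 201 cells had an Apoe UMI. Their Apoc2 level was 656 CPM (604 to 712), in 53.7% of the cells. These cells were shallow, with a median of 3946 UMIs, and they gave 5.48% of the Apoe and 4.45% of the Apoc2 UMIs.

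The largest source was cluster 1, classical monocyte-like cells led by Vcan, Clec4a3 and Fn1. It held 55.0% of the Apoe UMIs and 66.2% of the Apoc2 UMIs in 11.3% of the cells. Apoe stood at 780 CPM (772 to 789) in 66.7% of its 3539 cells, and Apoc2 at 208 CPM (203 to 212) in 69.3%. Apoe was unevenly spread among them: 33.3% of the cells had no Apoe UMI, the median was 3 UMIs, 16% had 20 or more and the highest cell had 143. Those with an Apoe UMI (2360 cells) had Ly6c2, a marker of classical monocytes, at 1234 CPM and Csf1r, the receptor that monocytes and macrophages live on, at 242 CPM, against 1737 and 167 CPM in the 1179 cells without one. Apoc2 stood at 246 CPM in the cells with Apoe and 136 CPM in those without.

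Monocyte-like cells with interferon genes in the lead (Ifit3, Cxcl10) stood beside cluster 1, with 799 CPM Apoe and 156 CPM Apoc2. The least Apoe of the monocyte-like clusters was in cluster 19, led by S100a10 and F13a1, at 26.9 CPM, with Apoc2 at 33.1 CPM. Neutrophil-like cells departed from this pairing. Mature neutrophil-like cells led by Mmp8 had 18.4 CPM Apoc2 and 0.885 CPM Apoe, and those led by Retnlg had 21.6 CPM Apoc2 and 4.26 CPM Apoe. Over all clusters the Pearson correlation of the Apoe and Apoc2 levels, as log2(CPM + 10), was 0.73 (32 clusters that share libraries and depth, a description). Both genes were seen in 2573 cells, which is 41.5% of the cells with Apoe and 56.1% of those with Apoc2.

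**Figure D1:**
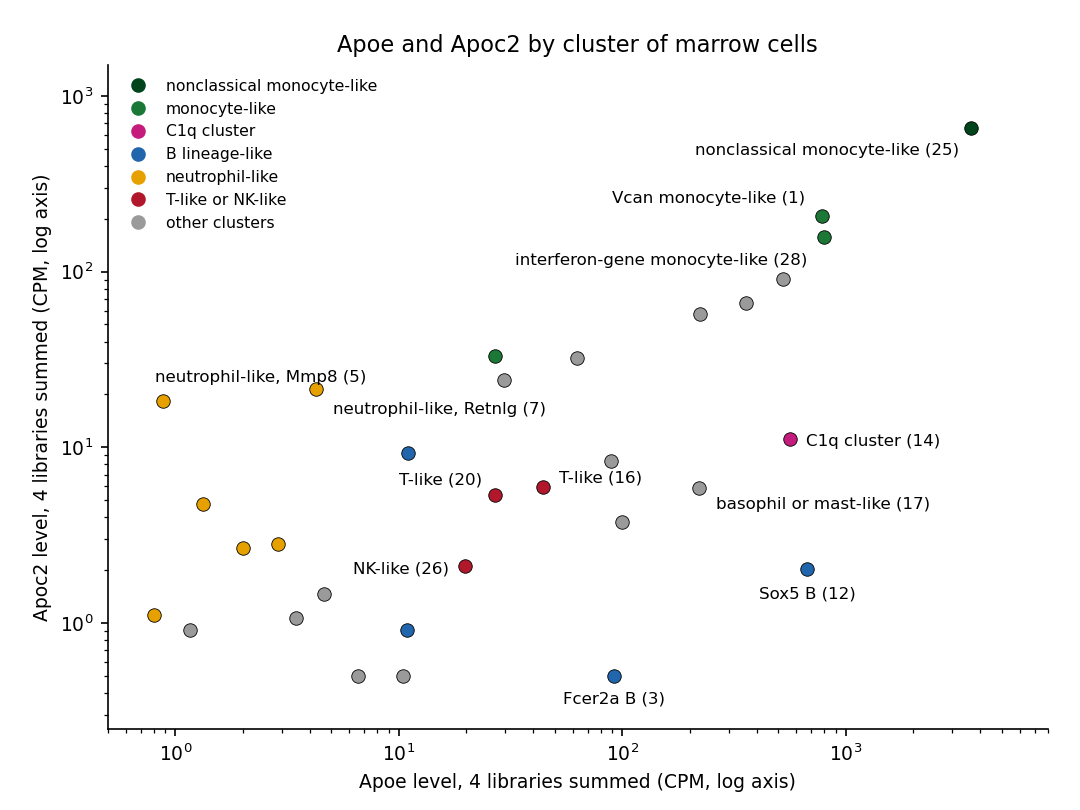
Apoe level against Apoc2 level in 31 clusters, libraries pooled, both in CPM on log axes, 1 point per cluster (a cluster at 0 for both is left out). The nonclassical, Vcan and interferon-gene monocyte-like clusters sit high on both axes, and monocyte-like cluster 19 has only 26.9 CPM Apoe. The Sox5 B lineage-like cluster has 672 CPM Apoe at 2.02 CPM Apoc2.

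Mature B lineage-like cells had Apoe almost without Apoc2. Cluster 12, B lineage-like cells led by Sox5, Fcrl5 and Bhlhe41, had 672 CPM Apoe (652 to 692) in 67.1% of its 918 cells, and 2.02 CPM Apoc2 in 0.98%. Bhlhe41 is a regulator of innate-like B-1 cells. Cluster 3, B lineage-like cells led by Fcer2a, Cr2 and Ighd, had 92 CPM Apoe (86.2 to 98.2) in 20.5% of 2161 cells, and 0.499 CPM Apoc2. Less mature cells led by Vpreb1a and Igll1 had 11 CPM Apoe and 9.32 CPM Apoc2. B lineage-like cells as a class held 9.01% of the Apoe UMIs, of which the Sox5 cluster gave most (7.38% of all Apoe UMIs).

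In the Sox5 cells, the 616 with an Apoe UMI had the B cell receptor gene Cd79a at 1417 CPM and Sox5 at 2010 CPM, against 1336 and 1921 CPM in the 302 cells without one. Of genes of monocytes and neutrophils, Csf1r stood at 5.31 against 2.10 CPM, Vcan at 1.99 against 10.5 CPM and Lyz2 at 293 against 196 CPM. Lyz2 stood at 22018 CPM in the cells of cluster 1 with an Apoe UMI. Apoc2 in the Sox5 cells stood at 2.66 against 0.524 CPM. S100a8, an abundant neutrophil transcript, stood at 1102 CPM in the cells with Apoe and 1378 CPM in those without. Called doublets were 12 of the 616 and 8 of the 302.

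The ratio of Apoe to Apoc2 UMIs was higher in the Sox5 and Fcer2a cells than in monocyte-like and neutrophil-like cells. It was 332 (194 to 624) in the Sox5 cells and 184 (78.7 to 569) in the Fcer2a cells, against 3.68 (3.6 to 3.77) in monocyte-like cells and 5.55 in nonclassical monocyte-like cells. Neutrophil-like cells had 0.314.

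T cells are not a known source of these transcripts, so T-like cells give the level that free RNA and doublets leave. Of 1167 T-like cells (median depth 4836 UMIs), 37 (3.17%, 2.24 to 4.34%) had an Apoe UMI, at 33.0 CPM, and 3 cells held 58.6% of those UMIs. Without called doublets, 20 of 1047 (1.91%) had one and the level was 5.89 CPM, which is 4.42% of the all-cell level. Before that removal Apoe was at 24.8% of its all-cell level and S100a8 at 26.9%, and S100a8 was at 2.27% after it. Apoc2 in T-like cells had 42 UMIs, and 4 UMIs remained without doublets. The C1q chains had 2 UMIs, both in 1 T-like cell. NK-like cells had Apoe UMIs in 3.09% of 194 cells, at 19.8 CPM.

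After thinning each cell to 2000 UMIs, 0.96% (0.46 to 1.75%) of T-like cells had an Apoe UMI. At the same depth the share was 46.7% (43.4 to 50.0%) of Sox5 B cells and 12.7% (11.3 to 14.2%) of Fcer2a B cells, with other B lineage-like cells at 1.57% (2.48% unthinned). Of nonclassical monocyte-like cells 126 of 140 had one, and the share was 41.6% of monocyte-like cells, 27.6% of basophil or mast-like cells, 1.38% of GMP-like (granulocyte-monocyte progenitor) cells and 0.28% of neutrophil-like cells. The unthinned shares were 83.6, 60.9, 60.8, 12.8 and 1.43% in the same order. At equal depth the shares of other B lineage-like, GMP-like and neutrophil-like cells lay inside or below the T-like interval. The T-like cells here include called doublets, so whether these shares are free RNA was not tested. Unthinned, Apoe stood at 10.5 CPM (9.30 to 11.7) in GMP-like cluster 10 and 3.46 CPM (2.77 to 4.27) in GMP-like cluster 13. Thinning left out 122 T-like, 144 Fcer2a, 10 Sox5, 61 nonclassical monocyte-like and 16 monocyte-like cells that were too shallow. In the Fcer2a B cells (median depth 4501 UMIs) S100a8 was at 0.55% and Apoc2 at 1.69% of their all-cell levels, while Apoe was at 69.0%. The basophil or mast-like cells, which had 221 CPM Apoe and 5.86 CPM Apoc2, held 4.89% of the Apoe UMIs.

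**Figure D2:**
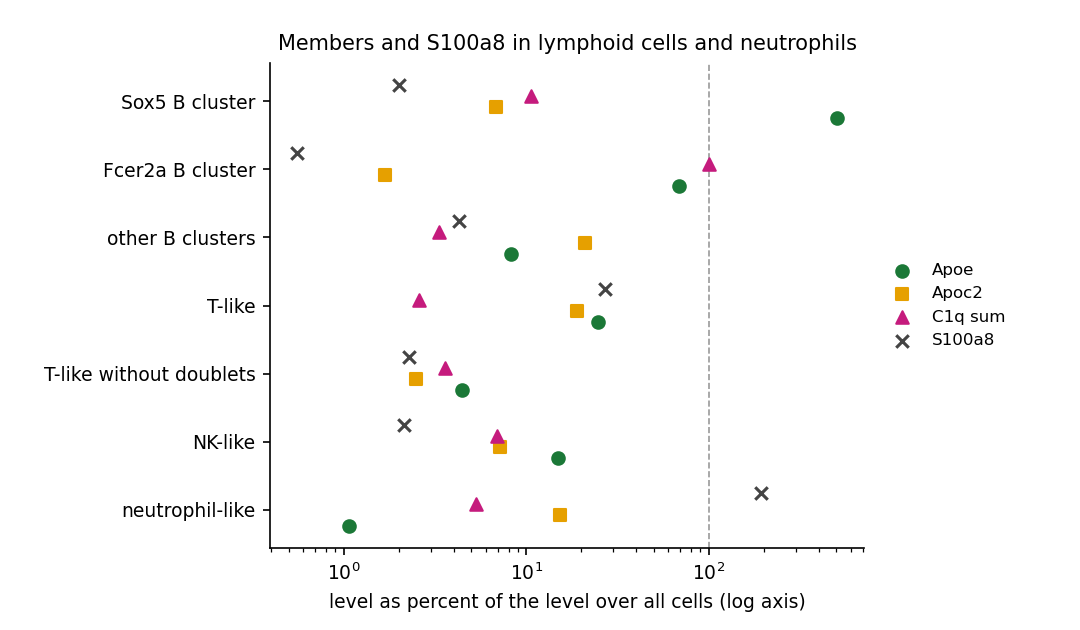
Level of Apoe, Apoc2, summed C1q and S100a8 as a percent of the level over all cells, in Sox5, Fcer2a and other B lineage-like cells, T-like cells with and without called doublets, NK-like and neutrophil-like cells. Apoe stands at 504% in Sox5 B cells and 69.0% in Fcer2a B cells, against 4.42% in T-like cells without doublets.

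C1q was made by few cells. Of the 259 cells with any C1q UMI, 88 had 1 UMI, and the 130 cells with 5 or more held 95.5% of all C1q UMIs. These 130 C1q-high cells, a range and not a cell type, had a median of 22.5 C1q UMIs and up to 168, and the 28 highest cells held as many UMIs as all the others together. At the limit, 6 cells had 5 UMIs and 12 cells just outside had 4. All 3 chains were seen in 113 of the 130. Of the 130 cells, 103 had an Apoe UMI and 29 an Apoc2 UMI, and 19 were called doublets. Cluster 14 held 100 of them, cluster 1 held 12 and the other 18 were spread over 8 clusters. Over the 32 clusters the C1qa level had a Pearson correlation of 0.99 with C1qb, 0.98 with C1qc and 0.41 with Apoe.

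The C1q UMIs outside cluster 14 were also in few cells. Fcer2a B cells had 103 C1q UMIs in 7 of 2161 cells, and 3 cells held 95.1% of them. The nonclassical monocyte-like cells had 50 C1q UMIs, 45 of them in 1 cell of Butyrate.

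The 130 C1q-high cells were set against the 671 cells of cluster 14 with no C1q UMI. The cells were chosen by C1q, so the comparison carries no test. The C1q-high cells were taken from any cluster, 100 of them from cluster 14, and the 671 others from cluster 14 alone. Apoe stood at 2523 CPM in the C1q-high cells and 242 CPM in the others. Mertk, a receptor for the uptake of dying cells, stood at 85.2 against 1.5 CPM, its relative Axl at 196 against 23.0 CPM, and Lpl, lipoprotein lipase, at 522 against 29.4 CPM. Maf, a macrophage transcription factor, stood at 305 against 15.9 CPM. Cd5l and Spic, genes of marrow and spleen macrophages, stood at 54.9 against 0 and 47.9 against 1.7 CPM, and in the C1q-high cells without Butyrate at 21.0 and 29.7 CPM. Negr1, a neural adhesion gene, stood at 704 against 16.5 CPM.

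Of the 7 monocyte-derived dendritic cell markers none was higher in the C1q-high cells than in the others, and of the 9 conventional dendritic cell markers 3 were (Cd24a, Itgax and Xcr1). The genes given next were chosen after their values were seen. Cd209a was at 29.6 CPM in the C1q-high cells and 518 CPM in the others, Flt3 at 23.9 against 186 CPM, Zbtb46 at 3.5 against 70.2 CPM and Clec10a at 165 against 394 CPM. Class II antigen presentation was high in both (H2-Aa 4765 against 6350 CPM). Over the 14 macrophage markers the summed level was 1531 CPM in C1q-high cells, 347 CPM in the other cells of cluster 14, 580 CPM in nonclassical monocyte-like cells and 146 CPM in all remaining cells. All 14 were detected in the C1q-high cells, but Siglec1 (9.9 CPM), Cd163 (3.5 CPM), Timd4 (2.1 CPM), Vsig4 and Marco (both 1.4 CPM), which define resident macrophages of several organs, were low.

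Markers of other cells also differed between these sets. The neutrophil list summed to 48166 CPM in the C1q-high cells and 30088 CPM in the others, the B lineage list to 400.0 against 59.8 CPM and the erythroid list to 90.8 against 14.8 CPM, and each stayed above the others without any 1 library. The megakaryocyte list, which holds Pf4, summed to 107.7 against 1.45 CPM, and to 34.9 against 1.63 CPM without Butyrate. The monocyte, T, NK, basophil or mast, stem cell and all dendritic cell lists summed lower in the C1q-high cells. The GMP list summed to 2111 against 236 CPM, but without Control it was lower in the C1q-high cells, at 62.3 against 202 CPM. All 11 neutrophil markers and all 5 GMP markers were detected in the C1q-high cells, while 4 of 7 erythroid, 2 of 9 B lineage and 7 of 9 T markers were at 0. The part of engulfed cells, free RNA or doublets in these values was not tested.

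The C1q-high cells were not uniform. These splits use genes picked after their values were seen and have no test. Apoe stood at 322 CPM in the 14 cells with a Cd5l UMI, of which 7 had an Apoe UMI, and at 2818 CPM in the 116 cells without Cd5l, of which 96 did. Over the cells with Cd5l the Apoe level was 615 CPM without Control and 121 CPM without Butyrate. Their C1q level was 9041 CPM in the 2 cells of B12+Butyrate, 4696 CPM in the 7 of Butyrate and 1021 CPM in the 5 of Control, and B12 had none. The Control level was set largely by cells of 27450 and 39783 UMIs, with 12 C1q UMIs each, among 88186 UMIs in its 5 cells. Both were in cluster 15, where 88.5% of cells were called doublets. Spic cells ran otherwise: all 28 had Apoe, at 3813 CPM against 2183 CPM in cells without Spic, and their C1q level was 4658 against 2587 CPM. The 21 cells with Pf4, a chemokine gene of platelets and some macrophages, had 6281 CPM Apoe and 6858 CPM C1q, against 1977 and 2461 CPM in the rest. Both levels were higher with Spic than without, and with Pf4 than without, in each of the 4 libraries. Of the 130 cells, 72 had a UMI of Cd5l, Spic, Vcam1 or Mertk, 28 of these also had Negr1, 17 had Negr1 alone and 41 had none of the 5 genes.

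**Figure D3:**
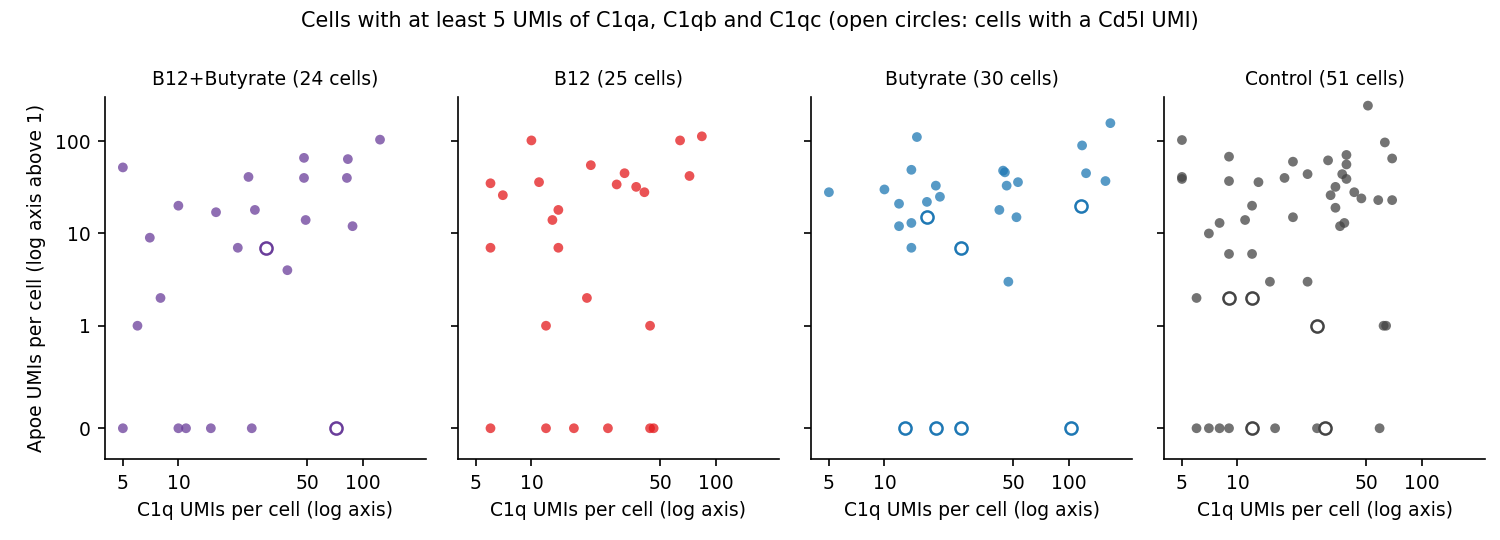
Summed C1q UMIs against Apoe UMIs in each of the 130 C1q-high cells, by library, with Cd5l cells as open circles. Of the 14 cells with Cd5l, 7 have no Apoe UMI, and cells without Cd5l reach up to 243 Apoe UMIs.

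The genes whose level followed each member over the 32 clusters were ranked by Pearson correlation of log2(CPM + 10) among 7205 genes. Apoe was followed by Gngt2 (0.85), Lipa (0.84), Rras, Nxpe4 and Abi3 (0.83 each). Lipa encodes the lysosomal acid lipase that frees cholesterol from its esters. Apoc2 was followed by Zfyve9 and Krt80 (0.90) and by Clec4a3, Vis1 and Sirpd (0.89). C1qa was followed by Apol7c and Negr1 (0.93), Ptchd1 (0.91), Fscn1 (0.89) and Adam23 (0.85). The same 5 genes followed C1qb, from Ptchd1 (0.94) to Adam23 (0.80), and C1qc, from Apol7c (0.97) to Ptchd1 (0.85). All 5 had their highest level in cluster 14, where 671 of the 809 cells had no C1q UMI. A correlation over clusters therefore does not show that they share cells with C1q.

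Genes of related pathways were read in cluster 14 against all other cells as a description, since the cells were clustered on such genes. The counts take genes at 10 CPM or more over all cells pooled, a filter chosen after seeing the data. A gene that reaches 10 CPM in cluster 14 but not over all cells pooled has to be higher there. Of 8096 such genes, 19.2% were at least 1.5-fold higher and 18.1% at least 1.5-fold lower in cluster 14, with a median of 0.08 on log2(CPM + 10). Of 22 apolipoprotein and sterol handling genes, 14 passed, 10 were higher and none was lower (median 0.80). Lpl stood at 113 CPM and 6.01-fold over other cells and the exporter Abcg1 at 3.74-fold, and Tyrobp (1480 CPM) and Npc2 (683 CPM) had the highest levels. Each was highest in another cluster. Lpl was highest in cluster 1 (117 CPM) and Abcg1 in nonclassical monocyte-like cells (228 CPM). Tyrobp was highest in cluster 8, led by Il1b (3628 CPM), and Npc2 in monocyte-like cluster 28 (1381 CPM).

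Of 21 complement genes, 12 passed, 3 were higher and 6 were lower (median -0.60). Of 13 efferocytosis and scavenger genes, 3 passed, 1 was higher and 1 was lower (median -0.02). Of 10 macrophage transcription factors, 7 passed, 4 were higher and 1 was lower (median 0.79), with Maf at 5.54-fold and Spi1 at the highest level of the list (410 CPM). Maf was highest in T-like cluster 16 (639 CPM, against 62.3 CPM in cluster 14) and Spi1 in cluster 8 (636 CPM). The remaining genes named here reached 10 CPM in cluster 14 but not over all cells pooled, so their direction was fixed by that. Nr1h3, the sterol-sensing receptor LXR alpha, stood at 17.5 CPM in cluster 14 and 0.318 CPM in other cells, and the phospholipid transfer protein gene Pltp at 47.9 against 4.69 CPM. C3ar1, a receptor for a complement fragment, stood at 13.8 against 0.504 CPM and the integrin Itgax at 88.0 against 4.43 CPM. The mannose receptor Mrc1 stood at 220.2 against 2.77 CPM, Mertk at 15.6 against 0.253 CPM and Axl at 57.6 against 1.40 CPM. Pparg, a lipid-sensing nuclear receptor, stood at 72.6 against 3.78 CPM. Cluster 14 was not the highest cluster for all of them. Pparg (709 CPM), Pltp (184 CPM) and Nr1h3 (19.3 CPM) were highest in nonclassical monocyte-like cells, and Itgax (131 CPM) in NK-like cells. C3ar1, Mrc1, Mertk and Axl were highest in cluster 14.

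Over all cells, Apoe stood at 100.3 CPM (98.4 to 102) in B12+Butyrate, 143 CPM (141 to 145) in B12, 133 CPM (131 to 135) in Butyrate and 154 CPM (152 to 156) in Control. Control was the highest and B12+Butyrate the lowest. Apoc2 stood at 21.7 CPM (20.9 to 22.6) in B12+Butyrate, 28.5 CPM (27.5 to 29.5) in B12, 22.5 CPM (21.5 to 23.5) in Butyrate and 43.0 CPM (41.9 to 44.2) in Control. Control was again the highest, and the intervals of the 2 libraries with butyrate overlapped. Summed C1q stood at 7.95 CPM (7.44 to 8.50) in B12+Butyrate, 6.41 CPM (5.96 to 6.89) in B12, 15.6 CPM (14.8 to 16.4) in Butyrate and 11.8 CPM (11.2 to 12.5) in Control.

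The 3 chains kept that order, apart from C1qb. C1qa was at 2.85, 1.88, 6.03 and 4.13 CPM in B12+Butyrate, B12, Butyrate and Control, C1qc at 2.38, 1.69, 4.13 and 2.85 CPM, and C1qb at 2.72, 2.83, 5.42 and 4.85 CPM. The 10 cells with most C1q held 75.2% of the C1q UMIs in B12+Butyrate, 67.1% in B12, 68.3% in Butyrate and 40.9% in Control, so a few cells set these levels. Cells with 5 or more C1q UMIs were 24 in B12+Butyrate (0.315%, 0.202 to 0.469%), 25 in B12 (0.311%, 0.201 to 0.458%), 30 in Butyrate (0.442%, 0.298 to 0.630%) and 51 in Control (0.583%, 0.434 to 0.765%). Control had the highest share and the other 3 intervals all overlapped with its own. The order of Butyrate and Control turned with 10 or more C1q UMIs, a minimum chosen after seeing the data: 0.249% in B12+Butyrate, 0.261% in B12, 0.427% in Butyrate and 0.423% in Control.

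Between libraries, log2 ratios used 10 CPM added to each level and were counted past 1.5-fold for genes at 10 CPM or more in either library. Over all cells Apoe and Apoc2 reached that level. In B12 over Control, 1.27% of genes were past 1.5-fold and 0 of the 2 members were (Apoe -0.10, Apoc2 -0.46). In Butyrate over Control, 0.382% of genes were and 1 of the 2 members, Apoc2 at -0.71 (Apoe -0.20). In B12+Butyrate over B12, 1.06% of genes were and neither member (Apoe -0.47, Apoc2 -0.28). In B12+Butyrate over Butyrate, 0.636% of genes were and neither member (Apoe -0.38, Apoc2 -0.04). The 53 genes past the limit in that last comparison split 6 higher to 47 lower, against 14 to 14 with median-ratio scaling, under which Apoc2 had the opposite sign (0.05). The first 2 comparisons share Control and the last 2 share B12+Butyrate.

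In monocyte-like cells, the main source, none of the genes of the 4 pathway lists that reached 10 CPM was past 1.5-fold in any comparison. Over all genes 0.356% were in B12 over Control, 1.15% in Butyrate over Control, 0.772% in B12+Butyrate over B12 and 0.295% in B12+Butyrate over Butyrate. The median log2 ratio of the sterol list was 0.01 in B12 over Control, 0.03 in Butyrate over Control, -0.08 in B12+Butyrate over B12 and -0.04 in B12+Butyrate over Butyrate. Those of the complement list were -0.07, -0.17, -0.08 and -0.04, of the efferocytosis list 0.15, 0.15, -0.10 and -0.03, and of the transcription factors 0.05, 0.09, -0.02 and -0.12. The medians over all genes tested in these cells lay between -0.01 and 0.01.

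Cells of the main source differed in number between libraries. Cluster 1 made up 8.98% of cells in B12+Butyrate, 10.3% in B12, 10.8% in Butyrate and 14.8% in Control. Within it Apoe stood at 742 CPM (723 to 761) in B12+Butyrate, 1051 CPM (1030 to 1072) in B12, 717 CPM (699 to 735) in Butyrate and 672 CPM (659 to 685) in Control. B12 was the highest inside the cluster, whereas Control was the highest over all cells. In B12, 21.3% of the cells had 20 or more Apoe UMIs, against 14.6% in B12+Butyrate, 14.9% in Butyrate and 14.1% in Control. Apoc2 in cluster 1 stood at 191 CPM (182 to 201) in B12+Butyrate, 225 CPM (216 to 235) in B12, 152 CPM (144 to 160) in Butyrate and 236 CPM (229 to 244) in Control. Butyrate was the lowest there, and the intervals of B12 and Control overlapped.

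In cluster 1, B12 over Control had 0.574% of genes past 1.5-fold and 1 of 2 members, Apoe at 0.64. Butyrate over Control had 1.27% and 1 of 2 members, Apoc2 at -0.61 (Apoe 0.09). Neither member was past it in B12+Butyrate over B12 (0.887% of genes, Apoe -0.50) or in B12+Butyrate over Butyrate (0.35% of genes, Apoc2 0.31). Over the whole monocyte-like class the 2 called values were 0.51 and -0.58, both inside the limit. The ratio of Apoe to Apoc2 in monocyte-like cells was 3.77 in B12+Butyrate, 4.56 in B12, 4.61 in Butyrate and 2.80 in Control, the lowest.

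Nonclassical monocyte-like cells numbered 29 in B12+Butyrate, 61 in B12, 68 in Butyrate and 43 in Control. Their Apoe level was 3239 CPM (2930 to 3572) in B12+Butyrate, 3726 CPM (3493 to 3970) in B12, 3500 CPM (3287 to 3723) in Butyrate and 3986 CPM (3722 to 4264) in Control. Apoc2 was at 685 CPM (547 to 847) in B12+Butyrate, 800.1 CPM (694 to 918) in B12, 601 CPM (515 to 697) in Butyrate and 543 CPM (448 to 651) in Control. Neither was past 1.5-fold in any comparison, in cells so few that 34.3% of genes were in B12 over Control, 33.1% in Butyrate over Control, 40.5% in B12+Butyrate over B12 and 42.7% in B12+Butyrate over Butyrate. The 3 C1q chains were past it in the second and the fourth, through the 1 Butyrate cell with 45 C1q UMIs.

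**Figure D4:**
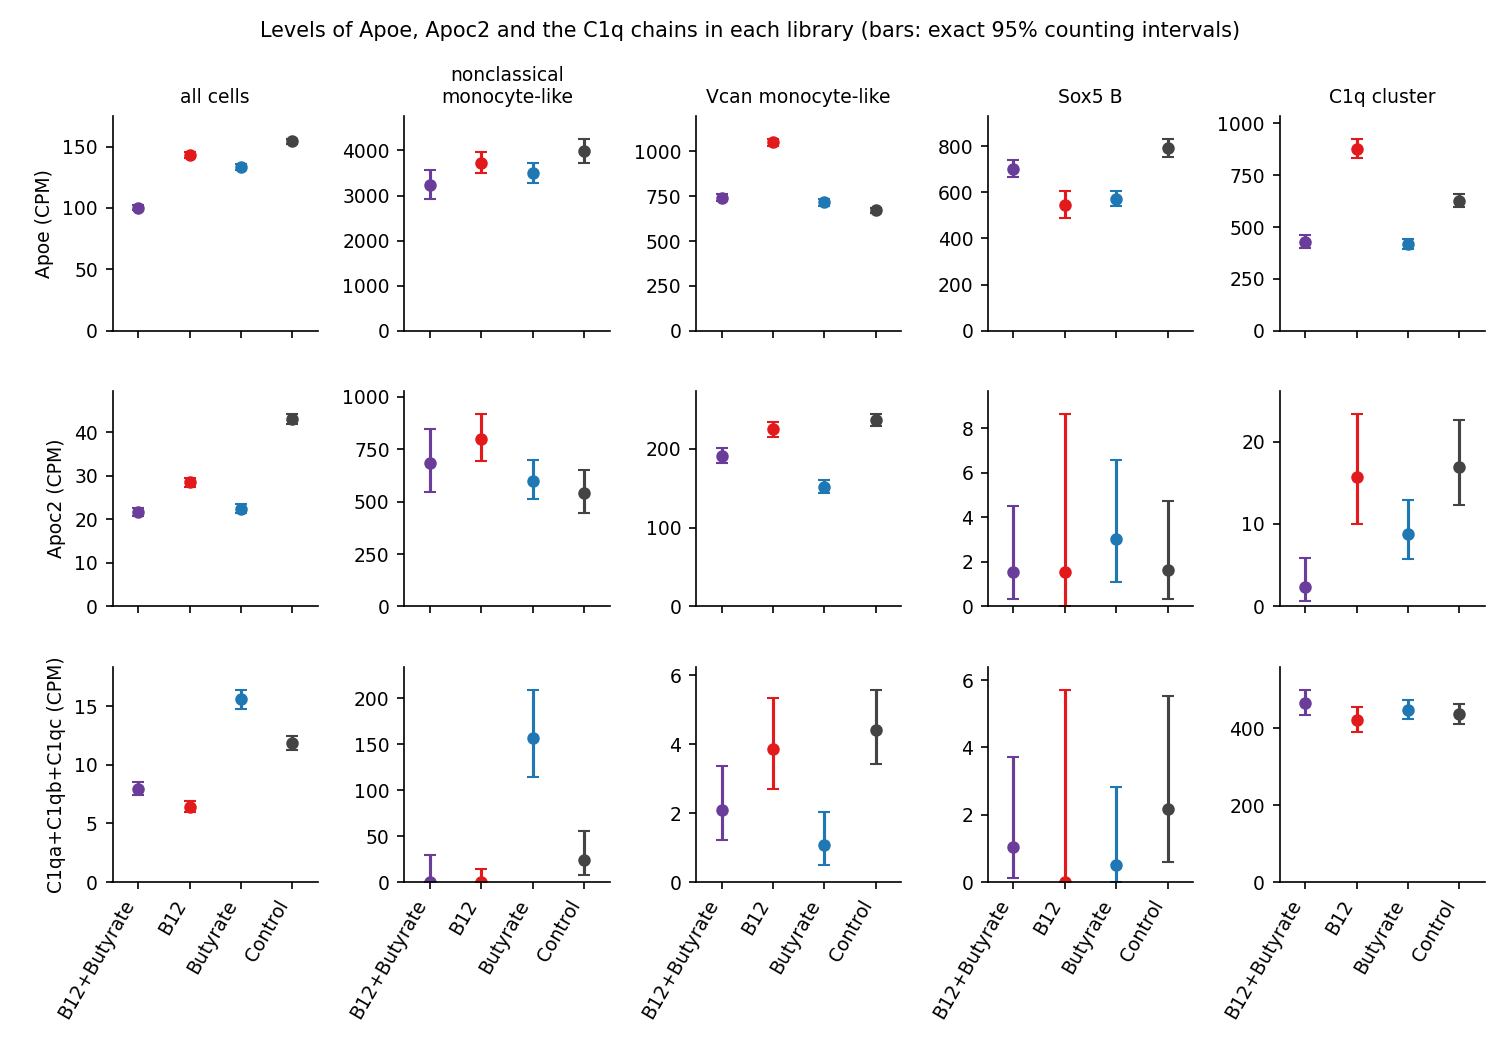
Level of Apoe, Apoc2 and summed C1q in CPM in each library over all cells, nonclassical monocyte-like cells, the Vcan monocyte-like cluster 1, the Sox5 B lineage-like cluster 12 and cluster 14, with exact 95% counting intervals and 1 library per group. Apoe over all cells is lowest in B12+Butyrate (100.3 CPM), and in cluster 1 it is highest in B12 (1051 CPM).

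In the Sox5 B cells Apoe stood at 703 CPM (666 to 741) in B12+Butyrate, 543 CPM (488 to 603) in B12, 572 CPM (540 to 607) in Butyrate and 791 CPM (751 to 832) in Control. It was lower in each single treatment than in Control, and in B12+Butyrate it lay between. An Apoe UMI was in 72.7% of 271 cells in B12+Butyrate, 54.4% of 103 in B12, 63.4% of 265 in Butyrate and 69.9% of 279 in Control. Apoe was past 1.5-fold in 0 of the 4 comparisons: B12 over Control (-0.53, 9.02% of genes past), Butyrate over Control (-0.46, 3.05%), B12+Butyrate over B12 (0.36, 8.81%) and B12+Butyrate over Butyrate (0.29, 3.58%). Without the 10 cells with most Apoe in each library, B12 over Control was past it, at -0.97. Those 10 cells are a larger part of the 103 cells of B12 than of the 279 of Control. The trimming was thus unequal, and the value does not show a larger difference. Sox5 cells made up 26.2% of B lineage-like cells in B12+Butyrate, 19.6% in B12, 26.8% in Butyrate and 32.6% in Control, a share that enters any Apoe level taken over the whole B lineage. The Fcer2a cells ran differently, with Apoe at 93.0 CPM (82.9 to 104) in B12+Butyrate, 126 CPM (108 to 147) in B12, 74.4 CPM (65.0 to 84.7) in Butyrate and 93.7 CPM (81.5 to 107) in Control.

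In cluster 14 the C1q level was close across libraries: 466 CPM (435 to 500) in B12+Butyrate, 422 CPM (390 to 456) in B12, 448 CPM (424 to 473) in Butyrate and 436 CPM (411 to 462) in Control. All neighbours in that order had overlapping intervals. Among the C1q-high cells, chosen by C1q and taken from any cluster, the chains differed more. C1qa stood at 1206 CPM in B12+Butyrate, 805 CPM in B12, 1979 CPM in Butyrate and 766 CPM in Control. C1qb and C1qc were likewise highest in Butyrate (1735 and 1364 CPM) and lowest in Control (854 and 513 CPM). Apoe in cluster 14 stood at 428 CPM (398 to 460) in B12+Butyrate, 879 CPM (832 to 927) in B12, 419 CPM (396 to 443) in Butyrate and 627 CPM (597 to 658) in Control. B12 was the highest, and the 2 libraries with butyrate were lowest and overlapped. In B12 over Control 0 of 5 members were past 1.5-fold, with 4.06% of genes, and in Butyrate over Control 0 of 5, with 2.55%. In B12+Butyrate over B12 there were 2 of 5, Apoe at -1.02 and Apoc2 at -1.06, with 5.43% of genes, and the Apoe value was -0.43 in cells thinned to 2000 UMIs. The Apoc2 value rests on 4 UMIs in B12+Butyrate and 24 in B12. In B12+Butyrate over Butyrate 0 of 4 were, with 2.83% of genes. Cluster 14 numbered 139 cells in B12+Butyrate, 156 in B12, 266 in Butyrate and 248 in Control.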

How the data were processed

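The deposited values are UMI counts, not normalized, for each gene in each cell barcode. Per the file headers Cell Ranger 7.1.0 made them, and the submitters' processing notes name GRCm39. The sources used here do not say whether intronic reads were counted. Cells were kept at 500 genes, 1000 UMIs and at most 10% mitochondrial UMIs. Doublets (1964 cells) were called from simulated doublets at 0.8% per 1000 cells and kept, since removal was an alternative. Clusters came from 2000 variable genes without the 5 genes, 30 principal components, 20 neighbours and the Leiden method at resolution 1, with no integration. A cluster took the name of its best marker list at a score of at least 0.5 and 0.4 above the next, with at least 3 markers detected. UMIs were summed per library and cluster, and levels have exact Poisson and shares exact binomial 95% intervals. With 1 library a group there was no test. Members and lists were chosen with earlier results of these data known. Named besides the members are the 5 genes most like each, at 50 CPM or more in some cluster, and of each list the 4 highest in level and in fold in cluster 14; markers named for C1q-high cells were chosen after their values were seen. The scripts were tested on simulated data. The work used leidenalg 0.10.2 with scikit-learn 1.9.0, and scipy 1.17.1 for intervals, under Python 3.11.15. Gene positions and promoters are of GRCm38, a build other than that of the counts. Some genes that the rule for named genes covers are not reported here.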

Additional observations from a re-analysis of the deposited data

Results flagged for a closer look

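Ratios between libraries for the same treatment had opposite signs with and without the other treatment, as log2 ratios with nothing added. Each rests on 1 library per group, so neither a treatment effect nor the difference was tested. Apoe in monocyte-like cells was -0.4 in B12+Butyrate over B12 and 0.103 in Butyrate over Control. Apoc2 in monocyte-like cells was 0.304 in B12+Butyrate over Butyrate and -0.187 in B12 over Control. Apoe in the Sox5 B lineage-like cluster was 0.296 in B12+Butyrate over Butyrate and -0.541 in B12 over Control, and it was 0.371 in B12+Butyrate over B12 and -0.466 in Butyrate over Control. Both pairs for the Sox5 cluster come from the same levels in the same libraries, so they are not separate observations.

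The 3461 barcodes that failed the cell filter enter no level above, and in them the levels of Apoe and the C1q chains were higher in the treated libraries named here than in the failed barcodes of Control. Apoe stood at 142 CPM in B12+Butyrate, 84.4 CPM in B12 and 91.4 CPM in Butyrate, against 57.5 CPM in Control. Apoc2 stood at 12.05 CPM in B12+Butyrate, 7.84 CPM in B12 and 13.2 CPM in Butyrate, against 8.87 CPM in Control, and so was lower in B12. C1qa stood at 25.2 CPM in B12+Butyrate and 20.3 CPM in Butyrate, against 0.771 CPM in Control. C1qb stood at 16.6 and 11.1 CPM in the same libraries and C1qc at 12.6 and 10.8 CPM, against 0.386 CPM for each in Control. Of these barcodes, 18 had 5 or more C1q UMIs, 8 in B12+Butyrate, 2 in B12, 8 in Butyrate and 0 in Control, and 11 of the 18 exceeded the mitochondrial limit.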

How the results depend on the processing

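No paired analysis was possible because each group has 1 library. For the member ratios 326 alternative values stayed within their counting error and on their side of 1.5-fold, 102 moved further, 29 newly passed 1.5-fold, 2 no longer did and 1 value past 1.5-fold lost that with the opposite sign, with the causes not tested. That one is Apoe over all B lineage-like cells, B12 over Control, at 0.3213 with the members among the clustering genes (-0.68 otherwise). Of the values inside 1.5-fold, 29 alternatives also had the opposite sign. The count of genes past 1.5-fold in B12 over Control (105) was 266 with 1 CPM added, 22 with 50 CPM added and 212 thinned to 2000 UMIs. That of B12+Butyrate over B12 (86) was 159, 19 and 169, that of B12+Butyrate over Butyrate (53) was 186, 5 and 86 and 28 with median-ratio scaling, and that of Butyrate over Control (32) was 102 with 1 CPM and 8 with 50 CPM added. With 1 CPM the last split 67 higher to 35 lower and thinned 25 to 18, against 14 to 18.

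Over all cells Apoc2 in B12 over Control was -0.5775 with 1 CPM, -0.2449 with 50 CPM, -0.3457 thinned and -0.3935 with median-ratio scaling. In Butyrate over Control it was -0.9055, -0.3596 (no longer past 1.5-fold) and -0.6367 in the first 3 of these. In B12+Butyrate over B12 it was -0.3778 with 1 CPM and -0.1307 with 50 CPM, and in B12+Butyrate over Butyrate, inside the limit, it changed sign to 0.05349 with median-ratio scaling. Apoe in B12 over Control was -0.13 without doublets and -0.0188 with median-ratio scaling. In Butyrate over Control it was -0.1578 with 50 CPM, -0.1119 thinned, -0.2422 with the stricter cell filter and -0.2329 without the 10 top cells. In B12+Butyrate over B12 it was -0.5093 with 1 CPM, -0.3621 with 50 CPM and -0.4375 without doublets, and in B12+Butyrate over Butyrate -0.2851 with 50 CPM, -0.4626 thinned and -0.2566 with median-ratio scaling.

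Monocyte-like cells held 64.57% of the Apoe UMIs without doublets, 58.79% at clustering resolution 0.5 and 59.12% at resolution 2, and 78.89, 69.58 and 75.73% of the Apoc2 UMIs. Cluster 14 held 89.63% of the C1q UMIs without doublets and 93.45% with the members among the clustering genes. With 10 or more C1q UMIs, a minimum chosen after seeing the data, the share in Control was 0.4228%, against 0.427% in Butyrate. Limits: 1 library of 3 pooled mice per group leaves differences between mice unmeasured, and C1q rests on 130 cells.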
